A study of Homo sapiens with 6 samples.

Results

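The start of chromosome 7, from position 1 to 14060000 of GRCh37, was examined in whole-genome bisulfite sequencing of H9, an established line of human embryonic stem cells. The stretch was chosen by its coverage, as 3 Reset libraries held more methylation calls there than 3 Conventional libraries, so coverage is described and not tested. It held 14060 of the 3036315 1-kb windows of chromosomes 1 to 22 and X, and 12076 of these windows had at least 10 calls in every library. It also held 89 of 19819 coding promoters, 89 of 19691 coding gene bodies and 90 of 18592 promoters of long noncoding RNA (lncRNA) genes, of which 87, 89 and 86 had this depth. A further 2 coding genes, FAM20C among them, carried no canonical transcript in the annotation and received no promoter.

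Conventional cells were maintained in FGF/KSR, which held 10 ng/ml bFGF and 20% serum replacement. Reset cells had expressed doxycycline-induced NANOG and KLF2 transgenes and were then moved to t2iL+Gö, with 1 μM CHIR99021, 1 μM PD0325901, LIF and 5 μM of the protein kinase C inhibitor Gö6983. All cells grew on mouse embryonic fibroblasts at 5% oxygen, and both groups came from this 1 line. The study calls the libraries of a group biological replicates, without saying in the sources used here whether they came from separate cultures, clones or passages. The permutation p-values compare these libraries only. Those of single windows, promoters and bodies also borrow the spread of all features of their kind, for windows almost wholly. A small p-value there does not measure the spread of that feature's own libraries.

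DNA methylation in mammals lies mostly on the cytosine of CG dinucleotides (CpGs). It is copied after replication by DNMT1 and laid down anew by DNMT3A and DNMT3B. Most of the genome is methylated in somatic and conventional pluripotent cells, while CpG-rich promoters, the CpG islands, are usually free of it, and those of developmental regulators are often bound by Polycomb proteins instead. The early embryo passes through a phase of low methylation before implantation. Chromosome 7 starts with a CpG-rich and gene-rich end, followed by a CpG-poor part with a few long genes.

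The sequences upstream of 4 transcription starts show the contrasts that recur in the values. Each is the strand of the gene, 150 bases of GRCh37 that end just before the start, with every CG in capitals. The promoters of FOXL3 and LFNG passed the main test as higher in Reset cells. Those of PAPOLB and COL28A1 lost much of their methylation, with many and few CpGs in the printed bases. These results belong to whole promoters, defined below, and the printed bases were not tested alone. LFNG did not pass in a narrower promoter that includes them, and FOXL3 did not pass an alternative test (edgeR).
FOXL3 (chr7:329986-330135, + strand): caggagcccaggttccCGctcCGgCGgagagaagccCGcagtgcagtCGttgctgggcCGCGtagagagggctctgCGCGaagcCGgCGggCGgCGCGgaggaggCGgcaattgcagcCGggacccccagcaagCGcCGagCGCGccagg
LFNG (chr7:2559258-2559407, + strand): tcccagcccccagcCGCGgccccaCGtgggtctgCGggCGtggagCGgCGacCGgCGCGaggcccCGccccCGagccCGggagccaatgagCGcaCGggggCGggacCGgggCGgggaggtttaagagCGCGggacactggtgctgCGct
PAPOLB (chr7:4901662-4901811, - strand): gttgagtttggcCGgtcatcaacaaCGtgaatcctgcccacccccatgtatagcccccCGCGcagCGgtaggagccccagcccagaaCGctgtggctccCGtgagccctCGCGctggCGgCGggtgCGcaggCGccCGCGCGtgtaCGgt
COL28A1 (chr7:7575505-7575654, - strand): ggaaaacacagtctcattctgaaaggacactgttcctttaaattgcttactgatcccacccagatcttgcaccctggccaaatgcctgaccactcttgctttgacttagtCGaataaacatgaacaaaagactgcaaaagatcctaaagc
These stretches held 20, 21, 17 and 1 CpG in the order printed.

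Coverage of the stretch was raised in each Reset library. Calls per CpG of 100-kb bins were scaled to each library's mean over the autosomes, and the Reset level was divided by the Conventional one after a correction for GC content. The median ratio was 1.44 over 139 bins of the stretch, with an interquartile range from 1.40 to 1.49, against 1.00 over 1400 bins of the rest of chromosome 7. It was 1.438 in Reset 1, 1.441 in Reset 2 and 1.444 in Reset 3, each against the Conventional mean. In 20-kb bins the ratio without adjustment was 1.49 and 1.62 in the last bins inside the border and 0.762 and 0.926 in the first bins outside it. Calls per CpG in the stretch came to 3.06, 2.91 and 2.84 in Conventional and 3.65, 3.77 and 3.29 in Reset libraries. The stretch was therefore measured at greater depth in Reset cells than the rest of chromosome 7, where Reset libraries held 2.499 to 2.85 calls per CpG. The cause of the raised coverage was not tested. A median window of the stretch that entered the tests held 40 to 43 calls per Conventional library and 44 to 50 per Reset library.

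**Figure D1:**
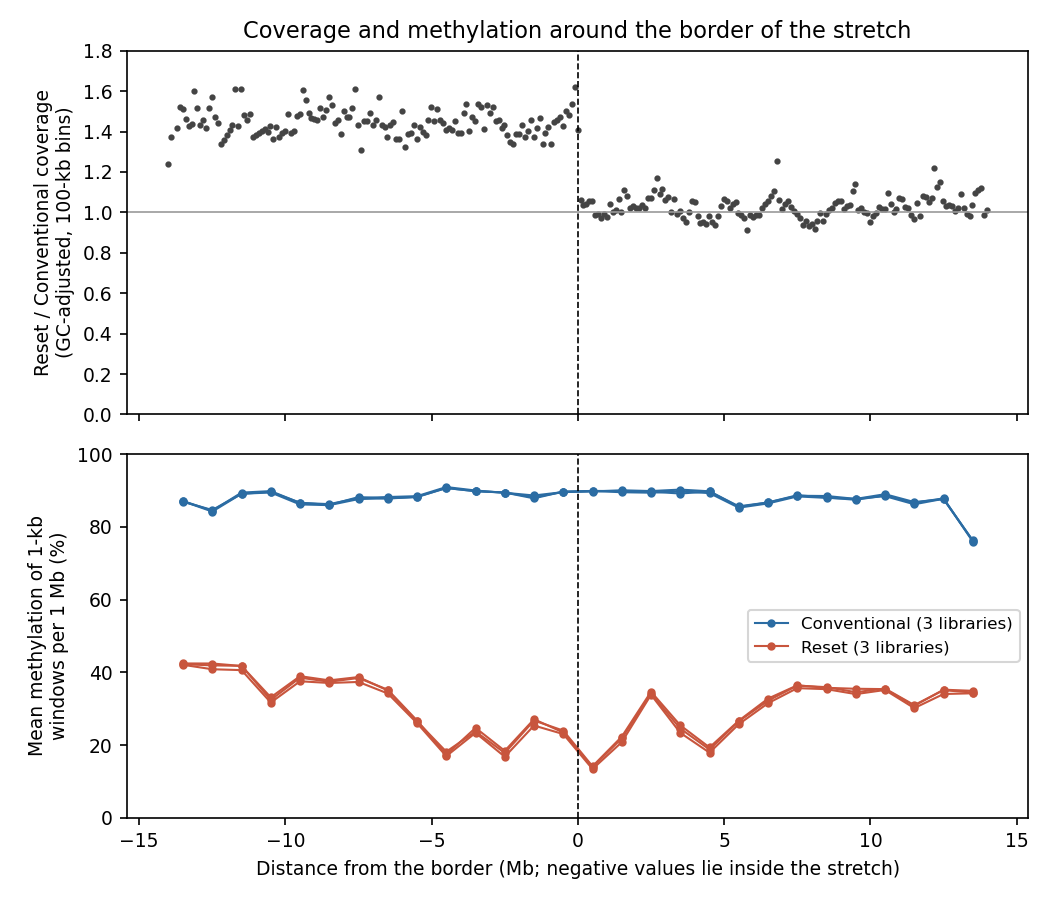
The upper panel plots the GC-adjusted ratio of Reset to Conventional coverage in 100-kb bins against the distance from the border of the stretch in Mb, with negative values inside. The lower panel plots the mean methylation level (%) of 1-kb windows per 1 Mb, with each of the 6 libraries as a line. The ratio steps from about the median of 1.44 to about 1.00 at the border, while the level of Conventional cells stays high on both sides and that of Reset cells swings within each side.

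Most of the methylation in the stretch was lost in Reset cells. The mean level of its windows was 88.1%, 88.2% and 88.0% in the Conventional libraries and 31.8%, 32.7% and 32.8% in the Reset libraries. The groups lay far apart, with a fall by 55.6 percentage points and a share lost of 63.2% ± 0.644 (SD over 3 Reset libraries). The exact two-sided permutation test gave p = 0.1, the smallest that 3 libraries against 3 can give. In the fit of single windows, 11884 of 12076 windows of the stretch were lower in Reset cells (adjusted p under 0.05), against 98.3% of all 2060730 windows tested. The Reset libraries all lay under the lowest Conventional library in 11842 windows, against 97.9% of all windows. A further 61 windows were higher in Reset cells, against 0.421% of all windows. The stretch thus held falls and rises at about the rate of the genome.

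Windows of equal CpG number were compared next, because the stretch is richer in CpGs than the rest of chromosome 7. Windows of the rest were averaged within each CpG number and weighted by the numbers found in the stretch, which left 12073 windows in the stretch and 102368 in the rest. The Conventional level was 88.1% ± 0.121 (SD, n = 3) in the stretch and 84.9% ± 0.0947 in the rest, and the Reset level was 32.5% ± 0.567 and 30.1% ± 0.594. The share lost was 63.2% in the stretch and 64.6% in the rest. As a log2 ratio of stretch to rest, the libraries gave 0.05, 0.05 and 0.05 in Conventional and 0.11, 0.11 and 0.10 in Reset cells, so the groups did not overlap and differed by 0.06 (exact permutation test, p = 0.1, the smallest possible). The stretch thus kept slightly more of its level than the rest at equal CpG number. The difference was 0.0961 in windows with at least 30 calls and 0.12 with pooled calls. The direction depended on the reference: against the next 14.06 Mb of chromosome 7 the difference was -0.04, and against the last 14.06 Mb it was 0.10. The first 14.06 Mb of 17 autosomes were also set against the rest of their own chromosome in this way. Chromosome 7 ranked 9 of 17 from the smallest loss, with differences that ranged from 0.18 on chromosome 18 to -0.35 on chromosome 9.

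The share lost became smaller with rising CpG number within the stretch. In windows with 1 to 5 CpGs the level fell from 89.0% ± 0.303 to 21.8% ± 0.551 (SD, n = 3), a share lost of 75.5%. The share lost was 69.1% with 6 to 10 CpGs, 58.7% with 11 to 20 and 53.6% with 21 to 40. It was 47.9% in 709 windows with 41 or more CpGs, where the level fell from 68.1% ± 0.184 to 35.5% ± 0.196. The rest of chromosome 7 showed the same order, from 74.7% lost at 1 to 5 CpGs to 52.2% at 41 or more. The 2 sets differed in level and in loss. The densest windows of the stretch were more methylated in Conventional cells, at 68.1% against 45.2% in the rest, and so were those with 21 to 40 CpGs, at 88.9% against 83.4%. The stretch lost less of its level in windows with 21 to 40 CpGs, at 53.6% against 57.8%, and with 41 or more, at 47.9% against 52.2%. The differences were smaller in the other classes, with 58.7% against 60.0% at 11 to 20 CpGs, 69.1% against 68.5% at 6 to 10 and 75.5% against 74.7% at 1 to 5. In each class the log2 ratios of stretch to rest did not overlap between the groups (exact permutation test, p = 0.1, the smallest possible, in each).

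**Figure D2:**
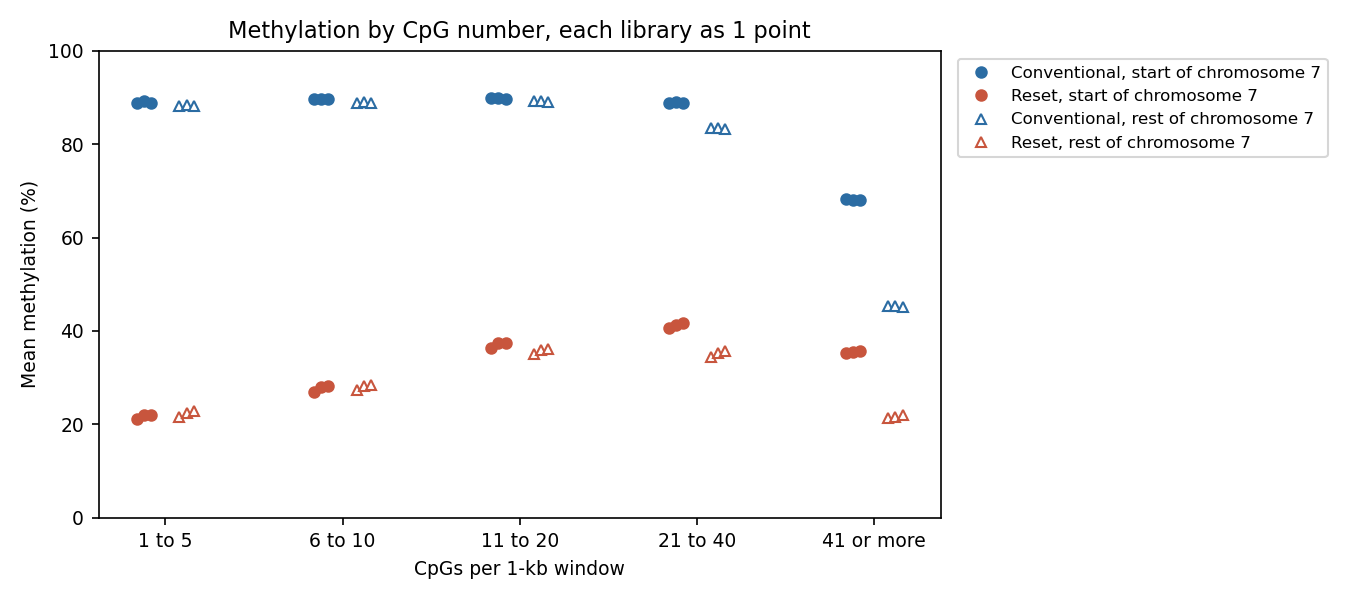
Mean methylation (%) of 1-kb windows against the number of CpGs per window, for the start of chromosome 7 (filled circles) and the rest of chromosome 7 (open triangles), with each of 3 libraries per group as 1 point. Reset levels of the stretch rise with CpG number up to 21 to 40 CpGs, and the stretch lies above the rest in both groups at 41 or more CpGs, at 68.1% against 45.2% in Conventional cells.

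The loss was uneven along the stretch. In the first Mb the level fell from 86.9% to 42.2%, a share lost of 51.4%, and in the third Mb 53.2% was lost. In the tenth Mb it fell from 90.7% to 18.6%, a share lost of 79.5%, and in the twelfth Mb 78.6% was lost. With the stretch split at its midpoint, the telomeric part lost 55.5% ± 0.678 and the inner part 72.3% ± 0.637 (SD over 3 Reset libraries). At equal CpG number, the log2 ratio to the rest of chromosome 7 was higher in Reset than in Conventional cells by 0.15 in the telomeric part, and its difference was -0.12 in the inner part. The whole stretch thus combined parts that differed from the rest in opposite directions. The eighth Mb, most of it in the inner part, went against its part, with 59.7% lost against 68.7% in the rest at equal CpG number. The ninth and thirteenth Mb lay close to the rest, with 70.2% lost against 69.9% and 69.9% against 69.4%. Windows of the first Mb held a mean of 31.2 CpGs and those of the tenth Mb 6.94. Of 10749 windows above 80% in Conventional cells, 14.6% stayed above 50% and 7.71% fell under 10% in Reset cells, against 10.0% and 9.21% of 89314 such windows in the rest, shares that were not set at equal CpG number.

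The 2 sides of the border were also compared. In windows of equal CpG number within 1 Mb of it, the Conventional level was 90.0% inside and 89.9% outside. The Reset level was 22.9%, 23.4% and 23.9% inside and 13.6%, 14.3% and 14.4% outside. Reset cells thus kept more methylation inside, with 74.0% lost against 84.3% outside, and the libraries did not overlap (exact permutation test of the log2 ratio, p = 0.1, the smallest possible). Swings of this size between neighbouring Mb also occurred well inside the stretch, where the share lost rose from 59.7% in the eighth Mb to 70.2% in the ninth and 79.5% in the tenth.

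Coding promoters of the stretch were mostly low in both groups. Of the 87 tested, 63 were lower in Reset cells, 5 were higher and 19 did not pass the test, where 67.4% of all 19300 coding promoters tested were lower and 3.98% higher (quasi-binomial model, adjusted p under 0.05). A promoter here covers 1000 bases before and 500 bases after the start of the canonical transcript. With 500 bases on each side, 28 of 87 were lower and 7 higher, against 39.6% and 4.4% of 18918 such promoters tested. Conventional levels were under 20% at 54 promoters, with a median of 8.12% that became 2.83% in Reset cells, and 32 of these were lower. At 21 promoters with 20 to 50% the median went from 27.2% to 7.91%, and 19 were lower. Only 12 promoters stood at 50% or more, and all 12 were lower. They held a median of 37.5 CpGs against 110.5 at the promoters under 20%. The counts by level were not set beside those of all promoters at the same level. A fall at 50% or more was common, as only 0.371% of all 5128 such coding promoters kept at least 80% of their level.

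The 12 methylated promoters lost between 40.02% and 82.5% of their level, with a median of 57.5% against 62.9% over all 5128 such promoters. GRIFIN, which encodes a lens protein related to galectins, kept most. Its level was 76.1%, 88.4% and 77.9% in the Conventional and 49.3%, 47.0% and 49.1% in the Reset libraries, a loss of 40.02% (adjusted p = 2.26e-05, quasi-binomial model). OCM, which encodes the calcium-binding protein oncomodulin, went from 87.6% ± 3.42 to 46.6% ± 0.898 (SD, n = 3). It lies near the duplicated genes PMS2, CCZ1 and RSPH10B, and how uniquely its reads align was not tested. Between 53.4% and 58.4% was lost at RBAK-RBAKDN, TMEM184A, ANKRD61, CYP2W1 (a cytochrome P450) and GRID2IP (the synaptic scaffold delphilin), in this order. ENSG00000226690, a coding gene without a symbol, lost 67.7%, with only 5 CpGs and 26 to 31 calls per library. RBAK-RBAKDN had 7 CpGs and 22 to 31 calls per library.

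RPA3, the smallest subunit of the single-strand binding protein RPA, went from 94.8% ± 1.76 to 26.0% ± 6.27 with only 5 CpGs in its promoter and 20 to 33 calls per library. PAPOLB, a testis poly(A) polymerase, had 82 CpGs and stood at 96.8%, 95.0% and 95.6% in Conventional against 24.2%, 29.6% and 21.3% in Reset libraries, a loss of 73.9%. SUN1, an inner nuclear membrane protein that links the nucleus to the cytoskeleton, fell from 78.3% ± 5.89 to 16.4% ± 1.79. COL28A1, a collagen gene, lost most, with only 7 CpGs in its promoter and 27 to 52 calls per library. It stood at 97.6%, 100% and 94.2% in Conventional and 13.95%, 14.8% and 22.2% in Reset libraries, a loss of 82.5% (adjusted p = 3.28e-07, quasi-binomial model). At each of these 12 promoters every Reset library lay below every Conventional one, as at 69.0% of all 19300 coding promoters tested. That share covers promoters of every level and was not counted at 50% or more alone. The loss did not order the 12 promoters by CpG number. PAPOLB and COL28A1, with many and few CpGs in the sequences printed above, were both among those that lost most.

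**Figure D3:**
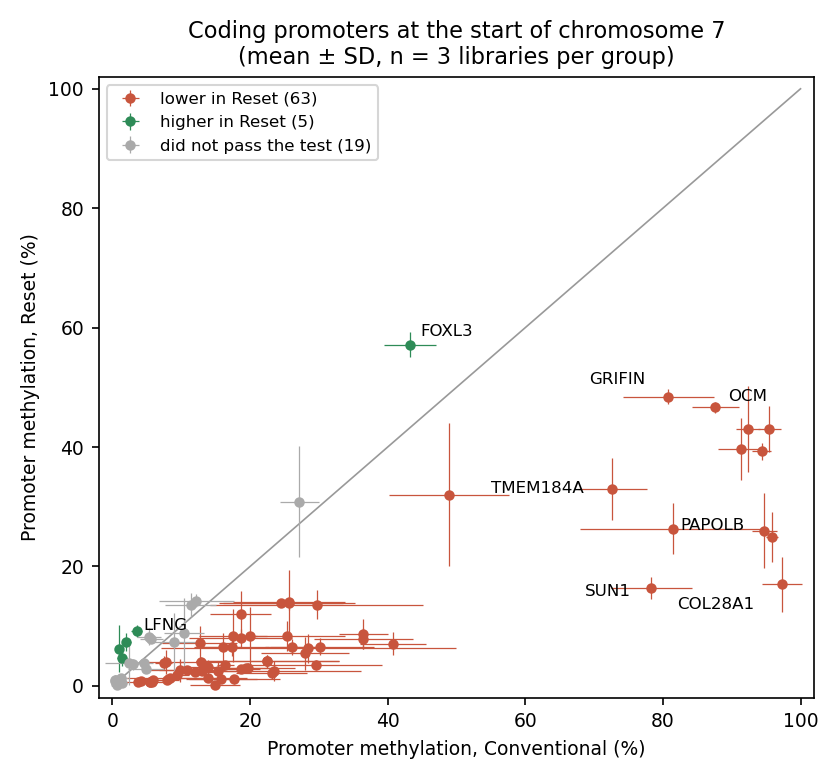
Methylation (%) of 87 coding promoters of the stretch in Reset cells against Conventional cells, as mean ± SD of 3 libraries per group, with the line of equal levels. Of these, 63 passed the test as lower and 5 as higher in Reset cells, and FOXL3 is the only promoter above 20% in Conventional cells among those that were higher.

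At 5 promoters methylation was higher in Reset cells, against 3.98% of all coding promoters. The groups did not overlap at any of the 5, which was not counted over all promoters. FOXL3, a forkhead transcription factor gene (chr7:329136-330636), had 47.5%, 40.8% and 41.3% in Conventional and 58.2%, 54.8% and 58.5% in Reset libraries. The rise by 13.9 points passed the test (adjusted p = 0.000866, quasi-binomial model) but not edgeR's quasi-likelihood test (adjusted p = 0.0625). The 1-kb window from 329001, which covers much of this promoter, did not pass (adjusted p = 0.314, quasi-binomial model), and its groups overlapped. The other 4 stayed low in absolute terms. LFNG, a glycosyltransferase that modifies Notch receptors, went from 2.67%, 1.92% and 1.46% to 8.85%, 7.28% and 5.88%. ZNF853, a zinc finger gene, went from 3.50% ± 0.786 to 9.20% ± 1.02 (SD, n = 3). ELFN1, a synaptic adhesion protein, had 0.794%, 0.840% and 1.20% against 1.79%, 8.28% and 8.70%, so that 1 Reset library lay close to the Conventional range. UNCX, a homeobox factor of somites and neurons, went from 1.34% ± 0.725 to 4.68% ± 1.41, and its call was lost without Conventional replicate 3 (adjusted p = 0.0511). In the narrower promoter of 500 bases on each side, LFNG, ELFN1 and UNCX did not pass the test (adjusted p between 0.306 and 0.882), while FOXL3 rose by 23.5 points.

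Gene bodies, from the end of the promoter to the end of the canonical transcript, were lower in Reset cells at 88 of 89 genes, against 97.8% of all 19153 bodies tested. UNCX was the exception, against 1.15% of all bodies higher. Its body stood at 2.01%, 1.82% and 1.23% in Conventional and at 13.4%, 7.58% and 7.86% in Reset libraries, with no overlap. Of the 89 bodies, 86 were at 50% or more in Conventional cells. Their median level went from 89.4% to 37.7% and their median loss was 56.8%, against 60.6% in 760 bodies of the rest of chromosome 7 and 59.8% in all 18070.

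FOXL3 lost least of the 86, and ranked 1 of 18070 for the smallest loss. The size of the loss depended on 1 library, and the loss was smaller still without that library. The FOXL3 body is short, at 818 bases with 95 CpGs. The levels were 58.9%, 77.8% and 51.4% in Conventional and 57.6%, 52.4% and 55.0% in Reset libraries, so the groups overlapped. It is 1 of 3 bodies that kept at least 80% of a level of 50% or more, 0.0166% of all. The difference was -7.71 points (adjusted p = 0.0174, quasi-binomial model), -0.159 points without Conventional replicate 2 (adjusted p = 0.911) and 0.490 points over the whole transcript (adjusted p = 0.642). It did not pass without Reset replicate 2 either (-6.41 points, adjusted p = 0.0874). The size of the difference at FOXL3 thus depended on 1 Conventional library, and its direction on the bounds of the body.

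The other bodies with small losses lay in the CpG-rich first 7 Mb. GRIFIN, at 84.9%, 74.5% and 89.1% against 38.3%, 65.5% and 44.4%, lost 40.3%. GPER1, a G protein-coupled receptor that binds oestrogen, lost 45.3%. MAD1L1, a component of the spindle checkpoint, was the large gene of this group, with 416.649 kb and 12861 CpGs. It went from 92.3%, 92.4% and 92.2% to 49.5%, 49.4% and 50.4%, a loss of 46.1% (adjusted p = 4.3e-34, quasi-binomial model), and ranked 3066 of 3076 bodies over 100 kb when these were ordered from the largest loss. ENSG00000286192 overlaps MAD1L1 over most of its length and is not independent of it. MICALL2, DNAAF5 (dynein arm assembly) and ZNF316 lost 46.9%, 47.8% and 47.8%. Within MAD1L1, 2 neighbouring windows from 1978001 to 1980000 stayed at 72.8% and 78.6% in Reset cells, from 90.8% and 91.3%.

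PSMG3, a chaperone of proteasome assembly, lost most, although its body of 2.2 kb was of middle CpG density, with 28.2 CpGs per kb. It stood at 81.0%, 75.8% and 75% in Conventional and 5.83%, 8.57% and 6.57% in Reset libraries, a loss of 91.0%. THSD7A, a thrombospondin-domain membrane protein, lost 88.1% over 461.332 kb. Its levels were 90.4%, 89.6% and 90.1% against 10.2%, 11.2% and 10.7%, and it ranked 26 of 3076 bodies over 100 kb from the largest loss. NXPH1, a neurexophilin that binds neurexins at synapses, lost 83.6% over 318.852 kb, from 76.3%, 76.8% and 77.1% to 11.8%, 13.1% and 12.9%. THSD7A and MAD1L1, of similar length and both near 90% or above in Conventional cells, thus ended at 10.7% and 49.8% in Reset cells. The 2 bodies differed in CpG number, with 2544 in THSD7A and 12861 in MAD1L1. NDUFA4, a subunit of cytochrome c oxidase, lost 72.7%, and ZNF853, TMEM106B and ZFAND2A lost between 69.6% and 70.4%. ZNF853 thus gained methylation at its promoter and lost it in its body.

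**Figure D4:**
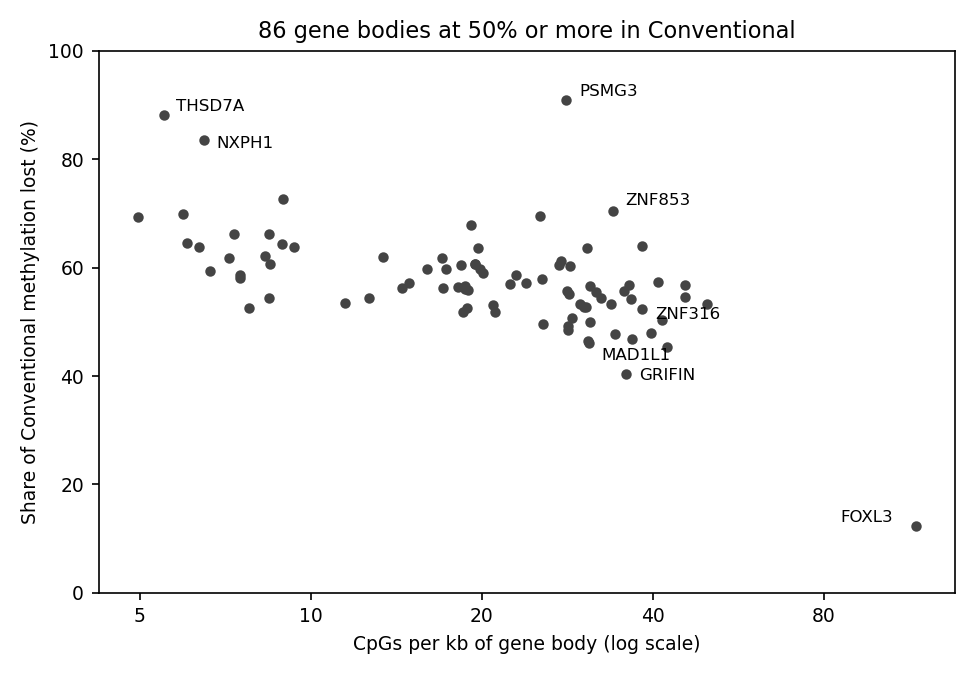
Share of the Conventional methylation level lost in Reset cells (%) against CpGs per kb of gene body on a log scale, for the 86 gene bodies of the stretch at 50% or more in Conventional cells, 1 point each. Sparse bodies such as THSD7A and NXPH1 lie high at 88.1% and 83.6%, FOXL3 lies lowest at 12.3%, and PSMG3 lies high at 91.0% in the middle of the range of density.

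Losses of the bodies went with CpG density. Over the 86 bodies, Spearman's rho between the share lost and CpGs per kb was -0.57, against -0.42 over 760 bodies of the rest of chromosome 7. These bodies share libraries and in part overlap, and the value is a description. In the 29 bodies with the fewest CpGs per kb the median loss was 61.7%, and 61.4% in 580 bodies of the rest within the same range of density. In 28 bodies of middle density it was 57.5% and 57.4%. In the 29 densest it was 53.2% against 56.3% in 28 bodies of the rest. Gene length did not order the loss, with a rho of -0.03.

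Groups of genes were then described by function. Of 12 promoters of signalling genes with values, 10 were lower and 1 (LFNG) higher, with a median difference of -12.3 points against -9.59 over all coding promoters. GPER1, IQCE and ADAP1 had the highest Conventional levels. GPER1 had 52.1%, 55.6% and 39.1% in Conventional and 22.02%, 28.8% and 45.3% in Reset libraries, so the groups overlapped. Its difference of -16.9 points passed the test (adjusted p = 0.0146, quasi-binomial model) but not without Conventional replicate 1 or 2 or Reset replicate 1 or 2 (adjusted p from 0.0519 to 0.0814). All 12 bodies were lower, where 97.8% of all coding bodies were. Of 10 transcription factor and zinc finger genes, 4 promoters were lower and 2 (ZNF853 and UNCX) higher. The forkhead gene FOXL3, whose promoter was also higher, was not in this list. The median difference was 0.52 points, and RBAK, with 27.2% ± 2.79 in Conventional and 30.9% ± 9.28 in Reset cells, did not pass the test (adjusted p = 0.510, quasi-binomial model; its sign changed without Reset replicate 1) but was higher in the narrower promoter. MAFK, a small Maf factor, had 12.8%, 52.9% and 19.7% in Conventional and 8.51%, 6.69% and 3.60% in Reset libraries. Its fall by 22.2 points was one by 9.99 points without Conventional replicate 2, and passed the test in both cases (adjusted p = 0.00378 and 0.00679, quasi-binomial model).

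Mitochondrial, metabolic and protein synthesis genes were lower at 9 of 10 promoters, with a median difference of -12.7 points, against 67.4% and -9.59 points over all coding promoters. COX19, a chaperone of cytochrome c oxidase assembly, fell from 30.1% ± 7.94 to 6.54% ± 1.43 and EIF2AK1, the haem-regulated eIF2α kinase, from 29.6% ± 9.66 to 3.50% ± 0.848. The exception was EIF3B, at 0.498% and 0.562%. Of 6 genes for genome upkeep and mitosis, 5 promoters were lower, with RPA3 and SUN1 as the methylated ones and MAD1L1 and NUDT1 next at 13.9% and 7.93% in Conventional cells. The mismatch repair gene PMS2 stood at 1.34% and 0.430% and did not pass the test. Its promoter overlaps that of AIMP2 on the other strand.

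Of 8 genes listed under cytoskeleton and cell migration, 5 promoters were lower. The 2 with the highest Conventional levels have other roles: KDELR2, a receptor of the secretory pathway, fell from 20.0% ± 0.987 to 8.44% ± 4.78 and WIPI2, an autophagy protein, from 19.3% ± 4.34 to 3.00% ± 0.537. RADIL, which acts in cell adhesion and migration, went from 18.6% ± 4.37 to 11.99% ± 3.95 with overlap between the groups, and its call was lost without Conventional replicate 3 (-4.11 points) and without Reset replicate 1 or 2. The β-actin gene ACTB stayed near 0, at 0.401% and 0.991%. Of 7 genes of neural adhesion and synapses, 3 promoters were lower and 1 (ELFN1) higher, and their bodies lost a median of 62.0%, from 49.6% in ELFN1 to 88.1% in THSD7A. The groups were put together with results of these data known, and their counts stand beside a background in which 13015 of 19300 coding promoters were lower (67.4%) and 768 higher (3.98%).

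Among lncRNA promoters of the stretch, 72 of 86 were lower and 4 higher, against 86.2% and 3.15% of all 17636. The count of higher promoters was 2 without Conventional replicate 2 or without Reset replicate 1. At the 58 lncRNA promoters at 50% or more in Conventional cells the median loss was 54.5%, against 65.8% in 470 of the rest of chromosome 7 and 61.7% in all. These losses were not set at equal CpG number, with which the loss of windows became smaller.

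Gains lay mostly in CpG-rich windows. In 35 windows of the stretch the level was higher by 10 points or more, passed the test and did not overlap between the groups, against 0.249% of all windows. Of these, 26 (74.3%) held 41 or more CpGs, against 5.90% of the windows of the stretch with 10 calls. The 35 had a median of 50 CpGs, against 12 in all windows of the stretch with 10 calls, and a median level of 6.66% in Conventional and 29.5% in Reset cells. In all, 32 of the 35 (91.4%) lay in the telomeric part of the stretch, which held 55.1% of its windows with 10 calls. Windows that are high in Conventional cells have little room for such a rise, and the median of all windows with 10 calls was 92.0% there. The shares by CpG number and by part were not set at equal Conventional level, so the rule itself may bring them about. The largest rise was in an intron of PRKAR1B, a regulatory subunit of protein kinase A (chr7:752001-753000). It had 29.0%, 10.6% and 16.9% in Conventional and 54.1%, 78.4% and 66.0% in Reset libraries, while the body of PRKAR1B fell from 90.6% to 46.7%. An exon window of the lncRNA ENSG00000249574 (chr7:420001-421000) came next, with 17.9%, 18.5% and 8.97% against 58.7%, 41.5% and 50.7%.

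The region around UNCX held the largest cluster of gains. Between positions 1263001 and 1289000, 16 of 26 windows met this rule, 23 passed the test as higher and 0 as lower. The region was marked out after its windows were seen, so the values are a description. Its mean level was 4.92%, 5.13% and 5.44% in the Conventional and 20.2%, 20.6% and 22.1% in the Reset libraries. In 3 of its windows the rise was among the 5 largest of the stretch. The window at 1266001, about 6 kb before the start, went from 0%, 1.10% and 2.50% to 36.8%, 36.1% and 26.4%. The windows at 1263001 and 1278001 rose by 30.6 and 29.6 points. Gained levels alternated with windows that stayed low, among them the window over the start itself, at 1.09% and 2.31%. A window about 13 kb after the start was intermediate in both groups, at 37.5% and 42.1%, and did not pass the test. Next to the region, 2 windows before it and 1 after it were intermediate in Conventional cells, at 41.9%, 37.1% and 37.2%, and did not pass the test in either direction. The windows beyond these, out to the limits of the plot, were lower in Reset cells.

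**Figure D5:**
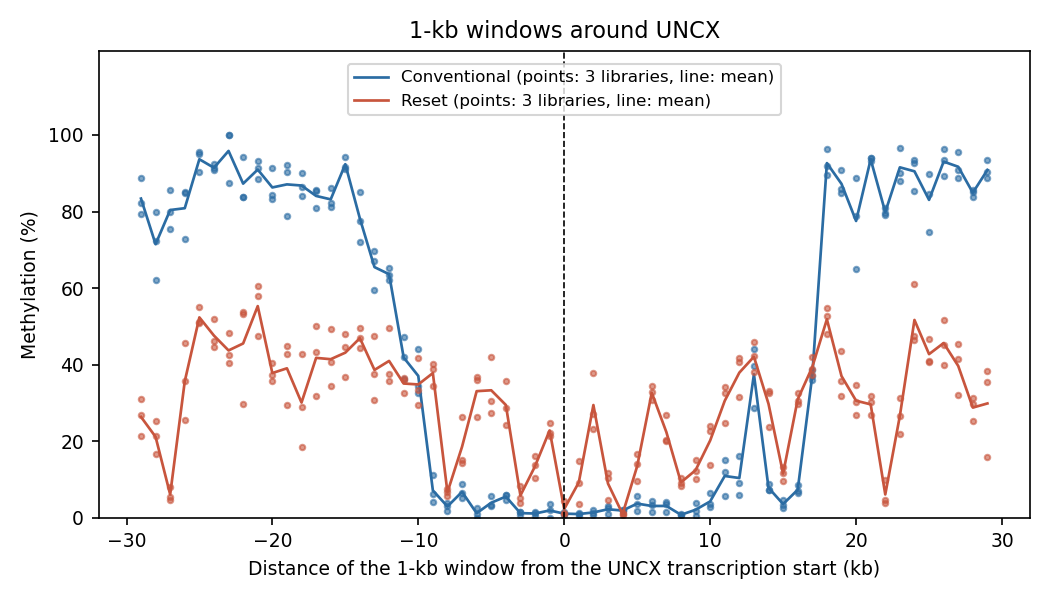
Methylation (%) of 1-kb windows against their distance from the UNCX transcription start in kb, with each of 3 libraries per group as a point and the group mean as a line. Conventional cells show a valley of low methylation around the start, with 1 intermediate window inside it, and high levels farther out. Reset cells reach up to 37.9% in the raised windows of the valley and lie below Conventional cells farther out. At 3 intermediate windows along its edges the difference did not pass the test.

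Other groups of neighbouring windows that met the rule lay at LFNG, NXPH1, TNRC18, FAM20C, ENSG00000249574 and a pair of overlapping lncRNAs. At NXPH1 the exon windows at 8474001 and 8475001 went from 0.478%, 0.602% and 0% to 23.7%, 24.1% and 18.0% and from 8.27%, 8.51% and 8% to 35.8%, 25.6% and 34.2%. These windows lie in the body of NXPH1, which lost 83.6% as a whole, and the promoter did not pass the test, at 8.96% and 7.33% (adjusted p = 0.579, quasi-binomial model). Over the 7 windows tested between 8474001 and 8482000, 5 passed as higher and 1 as lower, and the mean went from 13.7% ± 0.661 to 19.1% ± 0.557 (SD, n = 3). At LFNG 3 of 7 windows met the rule, with Reset levels from 22.1% to 26.9%, while the mean of the 7 went from 20.3% ± 0.871 to 24.1% ± 0.788. The mean around UNCX differed by 15.8 points, against 5.45 at NXPH1 and 3.79 at LFNG. It differed by 27.9 points at TNRC18, 26.6 at ENSG00000249574, 20.6 at FAM20C and 12.7 at the lncRNA pair. Each of these 4 held only 2 windows, and both met the rule.

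Few windows held their methylation. Of 11704 windows at 50% or more in Conventional cells, 16 kept at least 80% of it, against 0.147% of all such windows, and 14 of these (87.5%) lay in the telomeric part, beside 55.1% of all windows of the stretch with 10 calls. The 16 held a median of 34.5 CpGs, against 12 in all windows of the stretch with 10 calls. The share by part was not set at equal CpG number, nor counted over windows at 50% or more. The 16 had a median level of 55.9% in Conventional and 55.3% in Reset cells. The 5 with the smallest loss were the PRKAR1B exon window next to the raised one, a window just before FOXL3, one between genes nearest to MICALL2, one in an intron of TNRC18 and one nearest to LFNG. The window before FOXL3 overlaps much of its promoter, which was higher as a whole. The PRKAR1B window (chr7:751001-752000) had 64.5%, 56.3% and 45.6% in Conventional and 62.6%, 63.3% and 63.0% in Reset libraries. The groups overlapped, and its rise by 7.52 points (adjusted p = 0.0171, quasi-binomial model) did not pass without Conventional replicate 3 (adjusted p = 0.607). At the other 4 the difference did not pass the test (adjusted p from 0.314 to 0.983), and its sign changed in 3 of them when 1 library was left out.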

How the data were processed

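DNA of 6 H9 libraries, 3 Conventional and 3 Reset, was sequenced after bisulfite treatment. The submitters' processing notes name Trim Galore, Bismark 0.9.0 and Bowtie2 as tools and GRCh37 as the build. The methods of the paper name an earlier version of Bismark. For each CpG cytosine the authors deposited raw counts of calls read as methylated or as unmethylated, and the deposited percent at each cytosine equalled the share of methylated calls. No source used here names a step that removed duplicate reads, and copies of 1 molecule would make levels seem more precise than they are. Calls in sequence with near-identical copies, as around PMS2, CCZ1 and RSPH10B, may be uncertain in origin, which was not tested.

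Positions counted from 0 in the files, where 99.8% of them lay at a CpG, are printed counted from 1. Both strands of a CpG were added together. Depth was 70329213 to 98004161 calls per library. A level is the share of methylated calls in a 1-kb window, promoter or gene body (GENCODE release 44 on GRCh37, canonical transcripts), with at least 10 calls in every library. Window levels were averaged per library, and compared with a two-sided exact permutation test over libraries. Intervals were not computed for single libraries, and the SD over 3 libraries covers counting error and library spread together.

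Single features were tested on the counts of chromosomes 1 to 22 and X by a quasi-binomial model with a logit link, in which an F test compared the fits with and without the group. limma 3.58.1 squeezed the dispersion, with a floor of 1, and the Benjamini-Hochberg adjustment ran over all features of a kind, with a threshold of 0.05. The prior of the dispersion held 988 degrees of freedom for windows, 18.9 for coding bodies, 18.1 for lncRNA promoters and 10.0 for coding promoters. The test was tried on simulated calls with known changes. edgeR 4.0.16 was an alternative for promoters and bodies. Coverage was adjusted for GC content in 20 classes of 100-kb bins.

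The stretch, the gene groups and the rules were chosen with earlier results of these data known. Named genes are the coding promoters and bodies at 50% or more in Conventional cells with the 8 smallest and 8 largest shares lost (all 12 such promoters), up to 8 promoters that rose without overlap, and the 5 windows with the smallest loss and the 5 with the largest rise. Other genes appear as examples of a group, by the highest Conventional promoter level, or were chosen after their values were seen (EIF3B, PMS2 and ACTB, the body of UNCX, and the windows in MAD1L1, NXPH1 and LFNG). Alternatives were other call minimums, pooled calls, parts of the stretch, other references, a replicate block and leaving out each library. Printed sequences were read from the GRCh37 reference. A few genes and sequences that these rules select are not reported here.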

Additional observations from a re-analysis of the deposited data

How the results depend on the processing

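The fall of the window level in the stretch lay between 48.4 and 64.5 percentage points under every alternative that was run, including its telomeric and inner parts alone, call minimums of 5, 20 and 30 and pooled calls. The difference of the stretch from the rest of chromosome 7 (log2 ratio, 0.06) reversed to -0.12 in its inner part and to -0.036 against the next stretch of equal length, and lay between 0.0563 and 0.0594 when single libraries were left out; the cause was not tested. It was 0.12 with pooled calls, 0.13 without standardization by CpG number, 0.0961 at a minimum of 30 calls and 0.03 against all other autosomes. Windows lower in Reset cells numbered 6392 at a minimum of 30 calls, where fewer windows could be tested. At this minimum 6559 windows of the stretch entered the comparison at equal CpG number. The share that was lower over all 547388 windows tested at this minimum is not given here. Coding promoters that were lower numbered 28 of 87 with 500 bases on each side of the start (39.6% of all such promoters), against 63 of 87 with the wider promoter (67.4% of all). Higher lncRNA promoters ranged from 2 to 4 when single libraries were left out. The coverage ratio of 1.44 was 1.40 without the GC adjustment and from 1.43 to 1.45 with single libraries left out.

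Replicate numbers were shared between the groups, but deviations of same-numbered libraries did not go together (correlations between -0.02 and 0.01 over coding gene bodies and promoters). A replicate block gave 11852 lower and 58 higher windows and 62 lower and 5 higher coding promoters. The shares over all features under the block are not given here. The difference of the stretch from the rest, 0.06, is a mean of pairs that the block cannot change, so it is no check of that result. Among 43 named promoters, bodies and windows, 518 of 534 values under the alternatives kept their direction and side of the threshold. The reversed ones were the FOXL3 body over the whole transcript (0.490), the window before FOXL3 (from -2.69 to 10.12 points with single libraries left out), the one nearest to MICALL2 (from -4.67 to 4.99) and the one in TNRC18 (from -6.30 to 2.20). With about 3 calls per CpG and library, levels of single CpGs could not be compared.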
